A study of Mus musculus with 74 samples.

Results

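The genes described here are Lin28a, Lin28b, Igf2bp1, Igf2bp2, Igf2bp3 and Hmga2, RNA-binding and chromatin proteins of the early embryo. They were chosen by symbol as 6 of the 24015 named rows of the RNA-seq count table, and all 6 were found. Across mouse gut epithelium the 6 genes had their highest levels at embryonic day 12 (E12) or E14. From E12 to E16, 5 of the 6 were lower in each part of the stomach and 4 were lower in the small intestine (2 when only the groups compared were fitted). Of all genes tested, 16.5% were lower in forestomach, 10.5% in hindstomach and 17.6% in the small intestine. The steps differed by gene: Lin28a fell between E12 and E14, whereas in both parts of the stomach Igf2bp1 and Hmga2 fell mainly between E14 and E16, and Igf2bp3 in the small intestine fell mainly between E16 and E18.

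LIN28A and LIN28B are RNA-binding proteins that block the maturation of let-7, a microRNA family that accumulates late in development. LIN28 binds the loop of the let-7 precursor, and the terminal uridylyltransferases ZCCHC11 and ZCCHC6 then add uridines to it. Mature let-7 in turn represses mRNAs with matching sites, among them those of Lin28, of the IGF2BP proteins, which bind and stabilise mRNAs, and of HMGA2, a chromatin protein with AT-hook domains. Lin28b, Igf2bp and Hmga2 are widely used as markers of fetal programmes in intestine, liver and blood.

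The mature let-7 sequences are shown because their shared seed, bases 2 to 8, links these genes in that circuit. Of the 11 let-7 and miR-98 sequences in the RefSeq table (GRCm38.p6), 10 shared the seed GAGGUAG, and let-7j had GAGGUAU. Over the whole table, 11 of 1679 mature miRNAs (0.655%) had the shared seed. Capitals mark the seed, written 5′ to 3′:
let-7a: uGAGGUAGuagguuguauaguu
let-7d: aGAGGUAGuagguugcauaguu
let-7e: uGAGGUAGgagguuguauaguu
let-7g: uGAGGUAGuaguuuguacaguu
let-7i: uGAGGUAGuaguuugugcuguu
miR-98: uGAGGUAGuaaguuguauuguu

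The precursors are shown for GGAG, the 4-base element bound by the zinc knuckles of LIN28. GGAG stood after the mature sequence in 9 of 13 let-7 family hairpins, let-7g among them (chr9:106178840-106178927, plus strand, GRCm38.p6). It was not found in that of miR-98 (chrX:151913214-151913321, plus strand). So short a motif is common: 447 of all 1005 hairpins (44.5%) held it somewhere. Capitals mark GGAG:
let-7g hairpin: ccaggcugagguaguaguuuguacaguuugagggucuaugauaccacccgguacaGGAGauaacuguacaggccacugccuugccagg
miR-98 hairpin: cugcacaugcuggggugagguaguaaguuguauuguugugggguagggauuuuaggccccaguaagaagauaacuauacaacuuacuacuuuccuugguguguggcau

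RNA was sequenced from 31 samples in 15 groups, which also include libraries in which Cdx2, the homeobox factor that specifies intestine, was to be deleted. Wild-type (WT) libraries came from untreated CD1 embryos: forestomach, hindstomach and small intestine at E12, E14 and E16, and small intestine at E18, with 2 libraries per group. At E12 and E14 the small intestine libraries are labelled as midgut cells. The libraries labelled deleted at E10 (3 libraries) carried Cdx2f/f; Shh-Cre on a mixed B6;129 background, received no tamoxifen and were collected at E16. Shh-Cre acts in early gut endoderm. The libraries labelled deleted at E13 (2, labelled as collected at E16) and at E15 (2, collected at E18) carried Cdx2f/f; Villin-Cre on the same mixed background, with a 5 mg dose of tamoxifen. Villin drives this Cre in intestinal epithelial cells, and these libraries, unlike those labelled deleted at E10, had tamoxifen. Adult ileum villi came from B6;129 Cdx2f/f mice given sunflower oil for 5 days and from Cdx2f/f; Villin-Cre mice given 1 mg tamoxifen for 5 days, with 2 libraries each. Embryonic knockout and WT libraries thus differed in strain, and for the E13 and E15 deletions in tamoxifen too. These cannot be told apart from the loss of Cdx2. In adult ileum tamoxifen and Cre went with the knockout label, and cannot be told apart from that loss either. The labels do not say whether libraries of one group came from separate animals, so p-values measure the spread between these libraries, which may be technical.

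Libraries held 5970227 to 62463167 counts (median 21910062). Levels are given as CPM, counts scaled to a common library size. A change was called where the edgeR quasi-likelihood test gave an adjusted p below 0.05 over all genes tested and the change was at least 2-fold. Cdx2 itself was at 196 to 218 CPM in E16 WT small intestine and at 14.5 to 27.5 CPM where deletion is labelled at E10. It was not lower in the other libraries labelled knockout, at 213 to 218 CPM for the E13 deletion, 371 to 388 for E15 against 200 to 206 in E18 WT, and 462 to 472 in adult knockout against 242 to 248 in adult WT. Gene counts do not separate the floxed part from the rest of the transcript, so they do not check those labels. Epithelial markers (6 genes, Epcam and Krt8 among them) were present in every library. Their summed level was lowest in E16 forestomach, at 1570 and 1589 CPM, against 3827 and 3938 in E14 forestomach. In the E16 forestomach libraries, 13 mesenchyme genes summed to 26710 and 33730 CPM with none at 0, against 114 to 118 at E14. In the same libraries 4 of 10 blood genes were detected, summing to 13970 and 18910 CPM against 29.7 to 32.6. E16 hindstomach stood next for mesenchyme, at 7480 and 7832 CPM, and highest for neural genes, at 669.4 and 669.7 CPM against 10.9 to 16.6 at E12. Immune genes summed to 460.8 and 556.1 CPM in E16 forestomach and 505.5 and 625.8 in E16 hindstomach, against 0.988 to 4.09 in the same organs at E12. Libraries up to E16 came from an Epcam sort, and the part of these other cell types in the stage changes was not tested. Replicate pairs usually differed beyond counting noise, with a median chi-square per degree of freedom of 19.7 over all pairs, but those of E18 WT (1.53), deleted at E13 (2.48) and deleted at E15 (5.02) differed little.

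**Figure D1:**
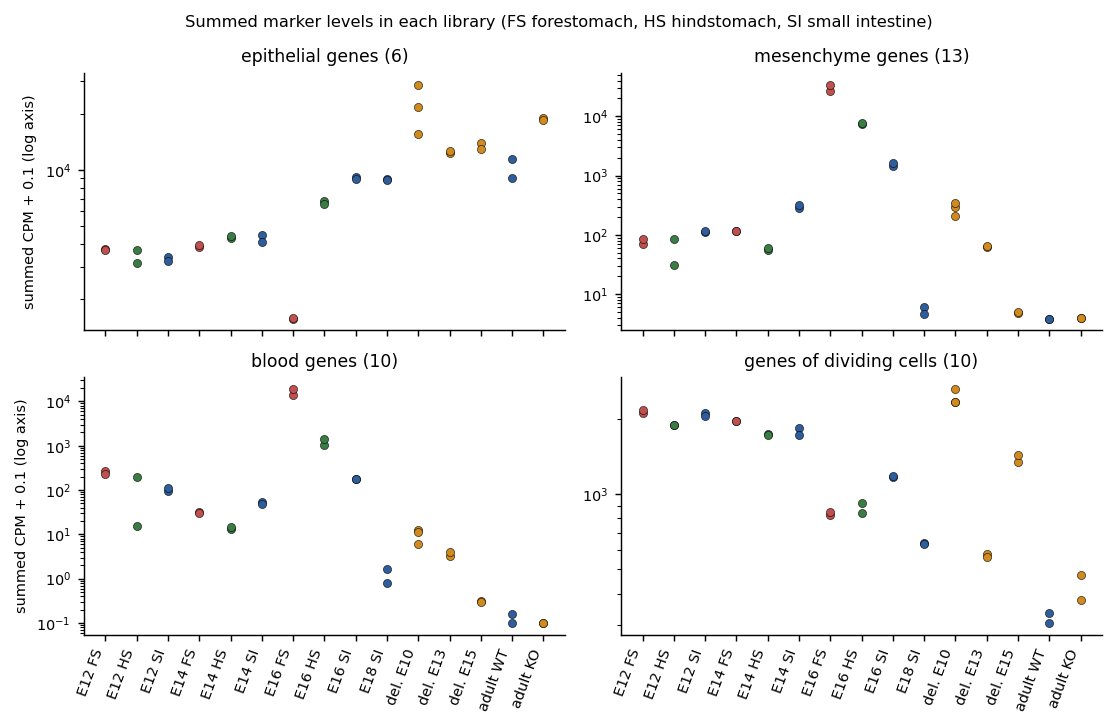
Summed level of 4 marker lists (CPM + 0.1, log axis) in each library, by group, where each point is 1 library and the numbers in brackets are genes per list. In the 2 E16 forestomach libraries the mesenchyme sum is 26710 and 33730 CPM and the epithelial sum is 1570 and 1589 CPM.

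The first question was how the 6 genes moved as the gut matured. From E12 to E16, none of the 6 was called higher in any organ, and the median log2 fold change of the 6 was -2.96 in forestomach, -2.65 in hindstomach and -2.48 in the small intestine. The median over all genes tested was 0.00, 0.11 and 0.00. Of all 17239 genes tested, 16.5% were called lower in forestomach, 10.5% in hindstomach and 17.6% in the small intestine, against 5, 5 and 4 of the 6. Scaling bore on the forestomach comparisons: 56.6% of the genes called from E12 to E16 were higher, and 68.6% with RLE scaling, which moved the median of all genes to 0.19. From E14 to E16 the shares were 55.2% and 67.6% with the median at 0.26, against hindstomach at E16 31.2% and 43.5%, and in the difference of changes between forestomach and hindstomach 36.5% and 48.0%. The members called kept their direction under each scaling tried. From E16 to E18 in small intestine, 5 of 6 were lower, where 22.1% of all genes were, and the median of the 6 was -3.82, or -2.21 with genes near 0 counts set at their bound, against -0.05 for all genes. The libraries at E18 were isolated with EDTA without the trypsin and Epcam sort used up to E16, so stage and isolation cannot be told apart in that step. Their stage rests on the label. Markers of other cell types moved in the same step: mesenchyme genes summed to 1467 to 1618 CPM at E16 and 4.501 to 6.08 at E18 (12 of 13 lower), blood genes to 176 to 177.2 and 0.714 to 1.56, and endothelial genes to 31.1 to 37.3 and 3.37 to 4.501. The part of these in the falls of the 6 genes was not tested. With 2 libraries per group, lack of overlap is common, at 67.5% to 80.9% of all genes with counts in the small intestine comparisons that involve E16 WT and another stage.

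**Figure D2:**
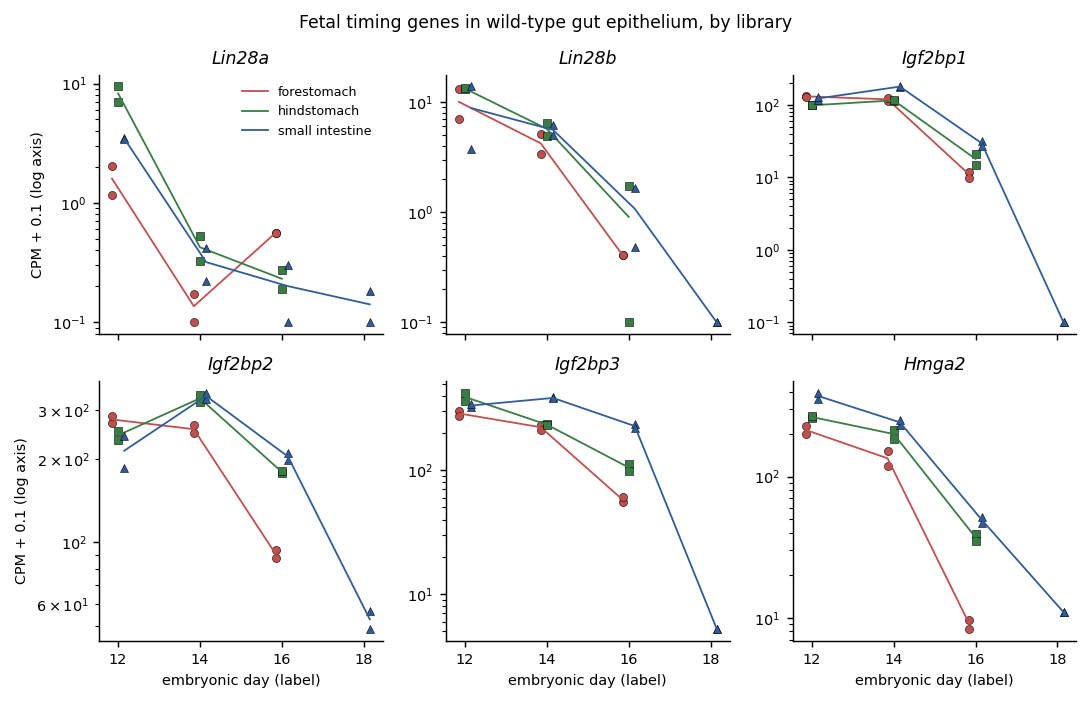
Level of each gene (CPM + 0.1, log axis) in WT gut by embryonic day, where points are libraries and lines join group means. Igf2bp1 stays at 98.3 CPM or more in all libraries to E14, is at 9.80 to 32.0 at E16, and is at 0 in the small intestine at E18.

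Lin28a and Lin28b encode the let-7 blockers. Lin28a was at 1.06 and 1.94 CPM in E12 forestomach (30 and 75 counts), 9.38 and 6.94 in hindstomach, and 3.42 and 3.31 in small intestine. At E14 it was at 0 and 0.0723 CPM in forestomach (0 and 2 counts), 0.423 and 0.226 in hindstomach, and 0.123 and 0.316 in small intestine. Every E12 library was thus above every E14 library, where 64.5% of all genes in forestomach, 69.8% in hindstomach and 57.9% in the small intestine also did not overlap between these stages. In hindstomach the log2 fold change was -4.63 (SE 1.10, adjusted p = 0.00372), and 6.46% of all genes were called lower there. In small intestine it was -3.98 (SE 1.08, adjusted p = 0.01), against 4.89% of all genes. In forestomach the pooled counts were 105 at E12 and 2 at E14, a 40-fold ratio with a 95% exact counting interval from 10.8 to 334 (edgeR adjusted p = 0.00624), and 5.13% of all genes were called lower. It was the single member called from E12 to E14 in each organ. Each of these calls was lost without 1 library: E14 forestomach replicate 1 (adjusted p over the alternatives tried from 0.000696 to 0.0699), E14 hindstomach replicate 2 (from 6.1e-06 to 0.0607) and E14 small intestine replicate 1 (from 0.000156 to 0.109). The small intestine call was also lost when only the groups compared were fitted.

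After E14, Lin28a stayed at 0 to 4 counts per library at E16, at 0 or 1 at E18 and in the libraries labelled knockout, and at 0 in all 4 adult libraries. Such counts are at or near the limit of detection of 3 counts per library. From E14 to E16 in forestomach Lin28a was called higher (adjusted p = 0.0449, from 0.0179 to 0.201 over the alternatives tried, 5 of which lost the call), with 3 counts in each E16 library against 0 and 2 at E14. Both groups were at that limit, so no fold is given, and 20.8% of all genes were called higher. From E12 to E16 it fell in hindstomach, with a log2 fold change of -5.90 (SE 1.20, adjusted p = 0.000569 in edgeR), and in small intestine, with -4.96 (SE 1.19, edgeR adjusted p = 0.00186). The hindstomach call was kept in every alternative tried. The small intestine call was lost when only the groups compared were fitted (adjusted p from 5.7e-05 to 0.0878 over the alternatives). Leaving out 1 library moved its value between -9.36 (without E16 replicate 1, which left a lone library with 0 counts) and -4.03 (without E16 replicate 2). In forestomach the E12 to E16 change was not called (adjusted p = 0.208).

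Lin28b had a slower course than Lin28a. It was at 6.94 and 12.9 CPM in E12 forestomach, 13.1 and 13.2 in hindstomach, and 3.65 and 13.8 in small intestine, where the 2 libraries differed most. At E14 the 6 libraries ran from 3.25 to 6.39 CPM, and no organ passed the test against E12 (adjusted p = 0.473 to 0.71). At E16 it was at 0.309 and 0.306 CPM in forestomach (2 counts each), 0 and 1.61 in hindstomach (0 and 37 counts), and 1.56 and 0.382 in small intestine (31 and 7 counts). All E16 libraries were below all E14 libraries, but replicates at E16 were far apart in hindstomach and small intestine. Between E14 and E16, 74.5% of all genes did not overlap in forestomach, 74.7% in hindstomach and 73% in the small intestine. From E12 to E16 the log2 fold change was -4.02 in hindstomach (SE 1.35, edgeR adjusted p = 0.0205) and -3.15 in small intestine (SE 1.31, edgeR adjusted p = 0.0497). In forestomach the pooled counts of 695 and 4 gave a 33.7-fold ratio (95% counting interval 13.1 to 124, edgeR adjusted p = 0.0153). At E18 Lin28b had 0 counts in both libraries, at least 4.72-fold lower than at E16 (adjusted p = 0.0301). None of these calls held in every alternative. That in small intestine was lost in 10 of 14 (adjusted p from 0.0152 to 0.241). The value there moved between -4.49 without E16 replicate 1 and -1.89 without E12 replicate 2. The hindstomach value moved between -11.31 without E16 hindstomach replicate 2, which left a lone library with 0 counts, and -3.02 without replicate 1. Its call was lost in the latter case (from 0.00354 to 0.106), and the forestomach call without E12 replicate 2, E16 replicate 1 or E16 replicate 2 (from 0.000463 to 0.0889). The E16 to E18 call was lost without E16 replicate 1 or either E18 library (from 0.00425 to 0.152), and the bound was 1.86-fold without E16 replicate 1 and 7.59-fold without replicate 2.

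Igf2bp1 encodes the RNA-binding protein IMP1, which binds coding and untranslated parts of target mRNAs. It was at 134 and 128 CPM in E12 forestomach, 98.7 and 98.3 in hindstomach, and 115 and 129 in small intestine. At E14 it was at 114 and 125, 113 and 117, and 177 and 180 CPM, so that E14 small intestine was the highest group and no change from E12 passed the test. At E16 it was at 11.7 and 9.80, 21.2 and 14.5, and 32.0 and 26.8 CPM. These did not overlap with any E14 library, like 74.5%, 74.7% and 73% of all genes in turn. The E14 to E16 log2 fold change was -3.47 in forestomach (SE 0.31, adjusted p = 4.2e-08), -2.69 in hindstomach (SE 0.28, adjusted p = 1.1e-06) and -2.60 in small intestine (SE 0.28, adjusted p = 8.0e-07). Background calls in the same direction were 16.9%, 5.50% and 11.9% of all genes. From E12 the log2 fold change at E16 was -3.61 (SE 0.31), -2.46 (SE 0.28) and -2.06 (SE 0.27) in the same order. At E16 Igf2bp1 was at 8.22% of its E12 mean in forestomach, 18.1% in hindstomach and 24.0% in the small intestine. At E18 it had 0 counts in both small intestine libraries, at least 143-fold lower than at E16 (adjusted p = 2.4e-10).

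Igf2bp2 encodes IMP2, which has roles in metabolism and remains expressed in adult tissues. It had the smallest change from E12 to E16 of the 6 genes in hindstomach and small intestine. Its levels at E12 were 270 and 284 CPM in forestomach, 233 and 253 in hindstomach, and 186 and 242 in small intestine. At E14 they were 247 and 264, 339 and 321, and 328 and 345 CPM, higher than at E12 in both small intestine libraries by less than 2-fold (log2 fold change 0.66, edgeR adjusted p = 0.00784). At E16 forestomach was at 87.5 and 93.5 CPM, hindstomach at 177 and 181, and small intestine at 209 and 198. In forestomach that was a log2 fold change from E14 of -1.496 (SE 0.18, edgeR adjusted p = 1.2e-06). The falls in hindstomach (log2 fold change -0.88, edgeR adjusted p = 0.00067) and small intestine (-0.73, edgeR adjusted p = 0.00246) were under 2-fold. The E16 small intestine libraries lay within the range of those at E12. At E18 the libraries were at 48.7 and 56.6 CPM, a log2 fold change of -1.95 from E16 (SE 0.18, edgeR adjusted p = 3.0e-08). Adult WT ileum, scaled apart, was at 40.5 and 42.2 CPM, so Igf2bp2 stayed detectable at every stage.

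Igf2bp3 encodes IMP3, known as an oncofetal protein that is re-expressed in tumours. It was at 299 and 274 CPM in E12 forestomach, 358 and 420 in hindstomach, and 324 and 341 in small intestine. At E14 it was at 232 and 212, 235 and 231, and 386 and 379 CPM. The E12 to E14 falls were under 2-fold in forestomach (-0.37, edgeR adjusted p = 0.0277) and hindstomach (-0.74, edgeR adjusted p = 0.00011), while small intestine did not pass the test (adjusted p = 0.203). At E16 it was at 54.8 and 60.8 CPM in forestomach, 111 and 98.9 in hindstomach and 236 and 218 in small intestine. Forestomach was thus at 20.2% of its E12 mean, hindstomach at 27% and small intestine at 68.3%. From E14 the log2 fold change was -1.94 in forestomach (SE 0.13, edgeR adjusted p = 4.2e-10) and -1.15 in hindstomach (SE 0.12, edgeR adjusted p = 8.4e-07). In small intestine it was -0.76 (edgeR adjusted p = 5.3e-05), under 2-fold. From E12 the changes at E16 were -2.31 (SE 0.13), -1.89 (SE 0.12) and -0.55, the last under 2-fold. By E18 both small intestine libraries were at 5.18 and 5.16 CPM, at 1.56% of the E12 mean, a log2 fold change of -5.45 from E16 (SE 0.15, edgeR adjusted p = 5.7e-15). Adult WT ileum was at 0.876 and 0.624 CPM.

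Hmga2 encodes an architectural chromatin protein of dividing embryonic cells and is a classical let-7 target. It was at 227 and 201 CPM in E12 forestomach, 261 and 268 in hindstomach, and 353 and 392 in small intestine. At E14 it was at 151 and 118, 186 and 214, and 233 and 252 CPM, with every library below those of its organ at E12. The shares of all genes without overlap between those stages were again 64.5%, 69.8% and 57.9%. These falls were under 2-fold, and passed the test in forestomach (log2 fold change -0.67, edgeR adjusted p = 0.0205) and small intestine (-0.62, edgeR adjusted p = 0.0261). At E16 it was at 9.57 and 8.27 CPM in forestomach, 39.0 and 35.0 in hindstomach and 52.0 and 46.8 in small intestine. The E14 to E16 log2 fold change was -3.92 (SE 0.25, adjusted p = 3.2e-10), -2.44 (SE 0.21, adjusted p = 1.1e-07) and -2.29 (SE 0.21, adjusted p = 9.9e-08) in turn. At E18 it was at 10.9 and 10.8 CPM, a log2 fold change of -2.18 from E16 (SE 0.22, edgeR adjusted p = 1.1e-07). Adult WT ileum was at 4.82 and 3.35 CPM. Hmga2 thus stepped down in small intestine at each interval measured. All 13 of the calls made for Hmga2 were kept in every alternative tried, as were all 10 for Igf2bp3.

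**Figure D3:**
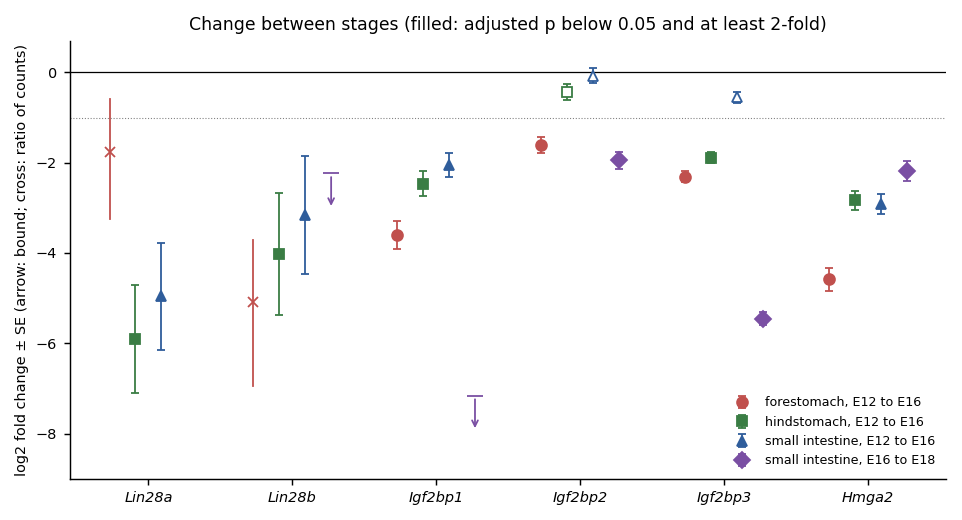
Log2 fold change of each gene from E12 to E16 in 3 organs and from E16 to E18 in small intestine, with the edgeR SE as bars, filled where called. Arrows mark bounds for genes with 0 counts at E18, and crosses with lines mark ratios of pooled counts with their 95% counting interval. Hmga2 fell by 4.58 in forestomach, 2.84 in hindstomach and 2.91 in the small intestine.

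The second question was whether organs differed. At E12 none of the 6 genes was called by edgeR between any 2 organs, while 7.11% of all genes were called between forestomach and hindstomach, 10.1% between forestomach and small intestine and 9.28% between hindstomach and small intestine. At an unadjusted p below 0.05 there were 2, 2 and 1 of the 6. DESeq2 called 1, Lin28a, lower in forestomach than in hindstomach, and none in the other pairs. A pair of differences under 2-fold passed the adjusted threshold: Igf2bp3 was lower in forestomach than in hindstomach (log2 fold change -0.44, edgeR adjusted p = 0.0206) and Hmga2 lower than in small intestine (-0.80, edgeR adjusted p = 0.0108). At E14 again none was called, by edgeR or by DESeq2, where 8.46%, 11.9% and 6.83% of all genes were in the same 3 pairs. There, 3, 4 and 2 had an unadjusted p below 0.05. Igf2bp3 was highest in E14 small intestine, by under 2-fold over hindstomach (edgeR adjusted p = 0.000385). The members' levels were thus within 2-fold between organs, or did not pass the test, up to E14.

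At E16 the libraries of Igf2bp1, Igf2bp2, Igf2bp3 and Hmga2 lay in the order forestomach, hindstomach, small intestine from low to high, with no overlap between neighbouring organs. Of all genes with counts, 67.9% did not overlap between forestomach and hindstomach and 72.4% between hindstomach and small intestine, and the last step did not pass the test for Igf2bp2 (adjusted p = 0.42) or Hmga2 (adjusted p = 0.117), nor the first for Igf2bp1 (adjusted p = 0.0683). Hmga2 was lower in forestomach than in hindstomach, at -2.05 on the log2 scale (SE 0.24, edgeR adjusted p = 2.4e-06), where 13.8% of all genes were called lower. Against small intestine, forestomach was lower for 4 genes, and 16.4% of all genes were. The log2 fold change there was -1.45 for Igf2bp1 (SE 0.30, adjusted p = 0.000538), -1.17 for Igf2bp2 (SE 0.18, adjusted p = 2.1e-05), -1.97 for Igf2bp3 (SE 0.13, adjusted p = 2.5e-10) and -2.47 for Hmga2 (SE 0.24, adjusted p = 8.6e-08). With RLE scaling and with DESeq2 the value for Igf2bp2 was -0.97, under 2-fold, which leaves 3 genes. Hindstomach was lower than small intestine for Igf2bp3 alone (-1.11, SE 0.12, edgeR adjusted p = 7.0e-07), and 8.10% of all genes were called lower there.

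The E12 to E16 change was also compared between organs within the same fit. It was steeper in forestomach than in hindstomach for 3 genes (12.9% of all genes were called lower in that difference), steeper in forestomach than in small intestine for 4 (16.1%), and steeper in hindstomach than in small intestine for Igf2bp3 alone (7.85%). The call of Igf2bp1 against hindstomach was lost in 11 of 17 alternatives (adjusted p from 0.0182 to 0.189), and that of Igf2bp2 was under 2-fold with RLE scaling and DESeq2, at -0.98. The differences in log2 fold change ran from -1.14 for Igf2bp1 to -1.76 for Igf2bp3. These libraries are bulk samples, in which fewer cells of a type and less RNA per cell cannot be told apart. The E16 forestomach libraries that gave the lowest levels also held the most mesenchyme and blood RNA and the least epithelial RNA, as given above, and the part of this in the differences was not tested. At E12 the mesenchyme sums were 30.3 to 116.5 CPM over all 3 organs.

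The third question was what levels the libraries labelled Cdx2 knockout had. In the libraries labelled deleted at E10, Igf2bp2 was at 55.0, 65.5 and 95.6 CPM, against 209 and 198 in E16 WT small intestine. The groups did not overlap, as for 68% of all genes, and the log2 fold change was -1.504 (SE 0.16, edgeR adjusted p = 7.9e-08). It was the single member called, while 27.6% of all genes were called lower and 23.9% higher. Igf2bp3 was at 148, 126 and 146 CPM, below both WT libraries by less than 2-fold (log2 fold change -0.70, edgeR adjusted p = 1.3e-05). Hmga2 was at 53.2, 84.7 and 107 CPM, above both WT libraries by less than 2-fold (log2 fold change 0.72, edgeR adjusted p = 0.00299). Igf2bp1 overlapped with WT at 12.6, 22.8 and 30.6 CPM, and Lin28b was at 2.87, 0 and 0.494 CPM (43, 0 and 4 counts). The members' median log2 fold change was -0.57, or -0.22 with genes at the limit set at their bound, against -0.10 for all genes. Genes of dividing cells summed to 2330 to 2628 CPM in these libraries and 1167 to 1179 in E16 WT, and mesenchyme genes to 208.9 to 340.2 against 1467 to 1618. Their part in these differences was not tested.

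In the libraries labelled deleted at E13 and as E16 in stage, 5 of the 6 genes were lower than in E16 WT, against 20.8% of all genes. None was higher, against 18.7%. Igf2bp3 was at 1.28 and 0.892 CPM, which was -7.69 on the log2 scale (SE 0.17, adjusted p = 3.6e-16 in edgeR), and Igf2bp1 at 0.661 and 0.491 CPM, -5.66 (SE 0.37, edgeR adjusted p = 7.6e-10). The fall of Igf2bp3 was the largest fitted for any member at levels above the limit of detection in both groups. Igf2bp2, at 58.4 and 58.1 CPM, differed by -1.81 (SE 0.18, edgeR adjusted p = 8.1e-08), and Hmga2, at 17.7 and 16.7, by -1.52 (SE 0.21, edgeR adjusted p = 6.4e-06). Lin28b had 0 counts in both, at least 7.53-fold lower (adjusted p = 0.0177, from 0.00148 to 0.11 over the alternatives). That call was lost without either of the E13 deletion libraries or without E16 small intestine WT replicate 1. The bound was 2.96-fold without that library and 12.1-fold without WT replicate 2. The median of the 6 was -3.84, or -2.36 with bounds, against -0.05 for all genes.

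E18 WT, which was compared with the same E16 WT libraries, is set beside the E13 deletion with no test. Igf2bp3 and Igf2bp1 differed between the 2 groups in opposite ways, at 0.892 to 1.28 CPM against 5.16 to 5.18, and 0.491 to 0.661 against 0. Stage was then looked at through marker lists and a few genes chosen with their values known. Genes of fetal enterocytes summed to 239.7 to 245.6 CPM in the E13 deletion libraries, below both E16 WT (1207 to 1374) and E18 WT (6012 to 6014). The genes of this list did not move alike: its sum was higher at E18 than at E16, while its median log2 fold change was -1.58. Adult WT, scaled apart, was at 1679 and 4119 CPM for this sum. Genes of adult enterocytes summed to 1496 to 1520 CPM, between E16 WT (7.806 to 8.001) and E18 WT (11610 to 11740). Treh, which encodes trehalase of the brush border, was at 366.7 to 370.4 CPM in the E13 deletion libraries, 1406 to 1421 in E18 WT and 0 in E16 WT. Igf2, a fetal growth factor whose mRNA is bound by the IGF2BP proteins, was at 10.04 to 10.8, 1.87 to 2.30 and 850.7 to 901.3 CPM in the same order. Sis, which encodes sucrase-isomaltase, was at 21.3 to 24.8 in the E13 deletion libraries against 9169 to 9281 in E18 WT. These lists and genes thus did not place the E13 deletion libraries alike, and their E16 stage rests on the label, which is in doubt. The comparison with E16 WT is stage-matched only as far as that label holds. The stage of E18 WT rests on its label too. Genes of adult enterocytes summed to more there than in adult WT, which was at 4891 and 6241 CPM, scaled apart. Igf2 in E18 WT was below adult WT, where its mean was 21.7 CPM. Genes of dividing cells summed to 560 to 578 CPM in the E13 deletion libraries, 632 to 638 in E18 WT and 1167 to 1179 in E16 WT. Mesenchyme genes summed to 62.0 to 64.0 CPM against 1467 to 1618 in E16 WT. The part of stage, strain, tamoxifen and cell makeup in these differences was not tested.

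In the libraries labelled deleted at E15, collected at E18, Hmga2 was the exception. It was at 39.8 and 42.7 CPM against 10.9 and 10.8 in E18 WT, with no overlap, as for 78.1% of all genes, which was a log2 fold change of 1.92 (SE 0.22, adjusted p = 2.4e-06 in edgeR). It was the single member called there and the single call of a rise at levels above the limit of detection in any stage or knockout comparison, while 7.79% of all genes were called higher and 9.70% lower. Igf2bp2, at 67.0 and 68.6 CPM against 48.7 and 56.6, did not pass the test (log2 fold change 0.36, edgeR adjusted p = 0.132), nor did Igf2bp3, at 4.5 and 4.47 against 5.18 and 5.16 (-0.21, edgeR adjusted p = 0.341). Lin28a, Lin28b and Igf2bp1 had 0 or 1 counts in every library of both groups. Over the other 3 genes the median log2 fold change was 0.36, against 0.00 for all genes. Genes of dividing cells moved with Hmga2, summing to 1345 and 1429 CPM against 632 to 638, and their part in this was not tested. Immune genes went the other way, at 13.4 to 14.6 CPM against 318.7 to 320.9, with 3 of 6 called lower. So did genes of fetal enterocytes, summing to 171.6 and 175.5 CPM against 6012 and 6014. Those of adult enterocytes summed to 1148 and 1179 CPM against 11610 and 11740. The part of these lists was not tested either. Mesenchyme genes were near 0 on both sides, at 4.70 to 4.86 CPM against 4.501 to 6.08.

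In adult ileum villi Hmga2 was at 7.29 and 8.78 CPM in the libraries labelled knockout and at 4.82 and 3.35 in WT, and Igf2bp2 at 53.6 and 69.1 against 40.5 and 42.2. In both cases the groups did not overlap, as for 64.5% of all genes, and neither passed the test in a fit of these 4 libraries (Hmga2 log2 fold change 0.97, edgeR adjusted p = 0.0518, and Igf2bp2 0.57, edgeR adjusted p = 0.0529). Igf2bp3 was at 0.580 and 0.999 CPM against 0.876 and 0.624, with overlap (adjusted p = 0.96). Its direction turned without knockout replicate 2 or WT replicate 2. Thus none of the 3 genes tested was called, by edgeR or by DESeq2, while 20.4% of all 12444 genes were, and 2 of 3 had an unadjusted p below 0.05. Hmga2 was called when all 31 libraries were fitted together and when low genes were kept. Igf2bp1 had 2 to 4 counts per library, and it and both Lin28 genes were too low to test.

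**Figure D4:**
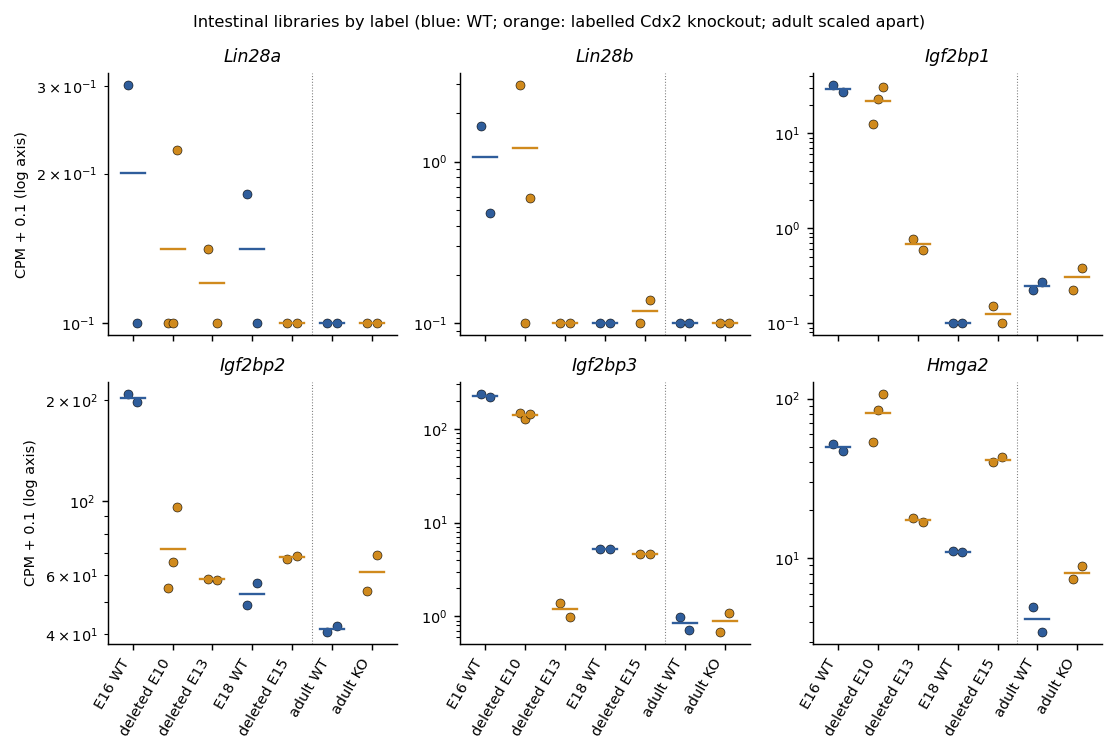
Level of each gene (CPM + 0.1, log axis) in intestinal libraries by label, where points are libraries, bars are group means, and adult libraries, right of the dotted line, were scaled apart. Hmga2 is at 39.8 and 42.7 CPM in the E15 deletion libraries and at 10.9 and 10.8 in E18 WT, whereas Igf2bp3 is at 4.5 and 4.47 against 5.18 and 5.16.

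Over the 15 groups Lin28a was highest in E12 hindstomach, apart from E12 small intestine and E12 forestomach, which did not overlap with it or with each other. None of these 3 differences passed the test (adjusted p = 0.146 to 0.435 in edgeR), and between organs at E12 45.7% to 48.7% of all genes did not overlap, so these orders describe the libraries. Lin28b was highest in E12 hindstomach, with E12 forestomach below it and both above every E14 group. E12 small intestine overlapped with both and, through its replicate 1, with the E14 groups. For Igf2bp1, E14 small intestine stood apart at the top, and E12 forestomach, E12 small intestine, E14 forestomach and E14 hindstomach followed with each overlapping its neighbour, then E12 hindstomach, and the E16 WT groups with the E10 deletion libraries among them. For Igf2bp2 E14 small intestine and E14 hindstomach were highest and overlapped, and adult WT had the lowest values. Adult libraries, for this gene and the others, were scaled apart and made with another kit, so their place in these orders was not tested. For Igf2bp3 the highest groups, E12 hindstomach and E14 small intestine, overlapped, and the lowest were both adult groups and the E13 deletion libraries, which overlapped in part. For Hmga2 E12 small intestine was highest, E12 hindstomach next, and adult WT lowest. In that order for Hmga2, E14 small intestine lay below E12 hindstomach and above E12 forestomach without overlap. Pairs of groups that differ in both organ and stage were not tested, so these orders too only describe the libraries.

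The let-7 circuit was then examined through genes that make, handle or answer to let-7. The list of genes that process let-7 held 11, among them Drosha and Dicer1, the nucleases that cut the precursor, and Zcchc11. From E12 to E16 none was called higher in any organ, while 5 of 11 were lower in forestomach, 3 in hindstomach and 2 in the small intestine, with medians of -0.98, -0.50 and -0.52. Of all genes, 16.5%, 10.5% and 17.6% were lower in turn, so the small intestine share was near that of all genes. Zcchc11 was lower in all 3 organs, at -3.03 on the log2 scale in small intestine (SE 0.20, edgeR adjusted p = 4.5e-10), from a mean of 129.5 to 15.9 CPM. Dicer1 (log2 fold change -1.39) and Drosha (-1.24) were lower in forestomach. The forestomach count of 5 was 2 under the alternative scalings, and the small intestine count of 2 was 4 without E12 replicate 2. The count of none higher was 1 in hindstomach without E12 replicate 2, and 1 in small intestine without either E12 library. From E16 to E18, 4 of 11 were higher and none lower, where 20.1% of all genes were higher and 22.1% lower. In the libraries labelled deleted at E10, Zcchc11 was higher than in E16 WT at 3.21 (SE 0.19, edgeR adjusted p = 4.0e-11), 2 of 11 were higher and 6 lower, Xpo5, the exporter of precursors, by -2.01 among these, against 23.9% and 27.6% of all genes. In the E13 deletion libraries 2 were higher, Zcchc6 (1.67) and Dicer1 (1.08), and Zcchc11 was lower (-1.27), against 18.7% and 20.8% of all genes. The count of 2 higher was 1 without E16 WT replicate 2. None was called in the E15 deletion or adult comparison, but 1 was higher in the former without its replicate 1 or E18 WT replicate 1, and in the latter without WT replicate 1 or with all 31 libraries fitted together.

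A further list held 16 other genes known or predicted as let-7 targets. Between E12 and E16, 11 of 16 were lower and 1 higher in forestomach (median -1.47), 5 lower and 1 higher in hindstomach (median -0.44), and 4 lower and 2 higher in small intestine (median -0.71). Genes called higher made up 21.6%, 23.2% and 22.4% of all genes in the 3 organs, and genes called lower 16.5%, 10.5% and 17.6%. Without E12 hindstomach replicate 2, 2 were higher in hindstomach. Mycn, a growth-promoting transcription factor, was lower in all 3, at -4.20, -3.54 and -2.70 on the log2 scale. Its relative Myc was higher in forestomach (1.42) and hindstomach (1.82). Trim71, a ubiquitin ligase and RNA-binding protein of early embryos, had 1703 pooled counts in E12 forestomach and 2 at E16, a 165-fold ratio (95% counting interval 45.7 to 1366), and was lower in hindstomach (log2 fold change -2.81). From E16 to E18, 7 of 16 were lower and 2 higher, against 22.1% and 20.1% of all genes. In the E13 deletion libraries 9 were lower and 1 higher (2 without E16 WT replicate 1), against 20.8% and 18.7% of all genes, with Mycn at -6.67 and Trim71 at 0 counts, at least 162-fold lower. In the E10 deletion libraries 5 were lower and 3 higher, against 27.6% and 23.9% of all genes, with Ccnd2, a cyclin, at 2.71. In the E15 deletion libraries 3 were lower, Arid3a (-3.49) and Mycn (-1.25) among them, and 1 was higher, Hmga1, which is named after its value was seen and was not called without E15 deletion replicate 2 or either E18 WT library. In adult knockout ileum, 2 of the 13 tested were higher, Ccnd2 (2.09) and Plagl2 (1.27), and 2 lower, Arid3a (-2.07) and Ccnd1 (-1.29), against 8.41% and 12% of all genes. The count of 2 lower was 0 without knockout replicate 1 and 1 without knockout replicate 2 or WT replicate 2.

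Mature let-7 was not measured, since standard RNA-seq libraries hold few reads of RNAs this short. The table has 14 rows for let-7 precursors or host transcripts. Of these, Mirlet7bhg, a host transcript, was the most abundant. It had 35 and 51 counts in E18 WT and 65 and 53 in the E15 deletion libraries, at 2.80 to 2.88 and 2.03 to 3.36 CPM. It had at most 2 counts in any WT library up to E16, 7 and 5 in the E13 deletion libraries, and 2 to 16 in adult ileum. Mirlet7i had 3 to 10 counts in the E10 deletion libraries only. In every library 8 rows were at 0, and the others had at most 3 counts.

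Among 8 genes of insulin-like growth factor signalling, from E12 to E16, 3 were higher and 1 lower in forestomach, 2 higher and none lower in hindstomach, and 1 higher and 3 lower in small intestine. The shares of all genes were 21.6%, 23.2% and 22.4% higher and 16.5%, 10.5% and 17.6% lower. Irs2, an adaptor of the insulin receptor, was higher in all 3 organs (log2 fold change 2.92, 1.78 and 2.52). Igf1 was higher in forestomach (4.93) and hindstomach (7.19). Mesenchyme genes in these organs summed to 26710 and 33730 CPM in forestomach and 7480 and 7832 in hindstomach at E16. At E12 they summed to 30.3 to 84.1, and their part was not tested. Under the alternative scalings the one lower gene in forestomach, Igf1r, was no longer called, nor without E12 or E16 forestomach replicate 1, and 2 genes were higher in small intestine. There 3 were higher without E12 replicate 1 and 2 without E16 replicate 2. From E16 to E18, 4 were lower and 1 higher (2 without E16 replicate 1), against 22.1% and 20.1% of all genes. In the E13 deletion libraries 4 were lower, with H19 at -10.38 and Igf2 at -6.39, the paired imprinted genes of that locus. Insr was higher (2.17), and the shares of all genes were 20.8% lower and 18.7% higher. The limits on stage and cell makeup given above for these libraries hold here too. In the E10 deletion libraries 3 were lower, Igf1 at -3.46 among them, and 2 higher, against 27.6% and 23.9% of all genes. Leaving out 1 library gave 1 to 3 higher, with 1 without E10 deletion replicate 3, and the replicate block also gave 1. Igf2 itself was at 1568 to 1849 CPM in the E10 deletion libraries. In adult knockout ileum Igf2 (-4.52) and Irs2 (-2.37) were lower of the 6 tested, 1 without either knockout library, and none was higher (1 without WT replicate 2). Igf2 differed between the adult WT libraries, at 7.09 and 36.3 CPM. In the E15 deletion libraries 2 were higher, H19 with 44 pooled counts against 3 in E18 WT, a 9.79-fold ratio (95% counting interval 3.14 to 49.3), and Irs1 (1.49), and none lower, against 7.79% and 9.70% of all genes. That count was 1 without E15 deletion replicate 2 or either E18 WT library.

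The list of genes of dividing cells held 10, since several of the 6 genes are highest in growing tissue. Between E12 and E16, 6 were lower in forestomach, 6 in hindstomach and 4 in the small intestine, none was higher, and the medians were -1.15, -1.11 and -0.81. Of all genes, 16.5%, 10.5% and 17.6% were lower. Top2a, a topoisomerase of replicating DNA, was lower in forestomach at -2.25 (SE 0.15, edgeR adjusted p = 4.6e-10). The small intestine count of 4 was 2 under the alternative scalings. The E16 to E18 counts were 7 lower and 1 higher, against 22.1% and 20.1% of all genes. In the E13 deletion libraries 7 were lower and Mki67 higher (1.33), against 20.8% and 18.7%. In the E10 deletion libraries 3 were higher and Mcm2 lower (-1.84), against 23.9% and 27.6%, so the share higher was near that of all genes. In the E15 deletion libraries, where Hmga2 was higher, 7 of 10 were higher and none lower (median 1.35), against 7.79% and 9.70% of all genes, with Cdk1 at 1.61, Mki67 at 1.53 and Top2a at 1.39. None was called in adult ileum, or 1 with the columns read as deposited.

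Likeness of pattern was described by Pearson's r of mean log2 CPM over the 10 WT embryonic groups, which share organs, stages and the isolation change at E18. The genes most like Igf2bp1 were Mcm2 (r = 0.998), Tfdp1 (0.991) and Mcm5 (0.990), and those most like Igf2bp2 were Mcm6 (0.986), Spidr (0.985) and Ipo11 (0.981). MCM proteins form the replicative helicase. Lin28b was nearest to Chek1 (0.990), Lipt2 (0.988) and Ccdc77 (0.984), Igf2bp3 to Tsen54 (0.991), Bex4 (0.988) and Cxxc5 (0.986), and Hmga2 to Ints10 (0.988), Trmt10a (0.987) and Pcgf6 (0.986). Lin28a was nearest to Cyct (0.962), Zscan10 (0.935) and Foxr2 (0.932). Among the members the highest r was between Igf2bp1 and Igf2bp3, at 0.979, and Lin28b and Hmga2 had 0.943. Lin28a had r of 0.28 to 0.636 with the others. By Spearman's rho the highest pair was Igf2bp3 and Hmga2 (0.939), with Igf2bp1 and Igf2bp3 at 0.758, and Lin28a had 0.745 with Lin28b and 0.648 with Igf2bp3. The names depended on the measure: of the 18 named genes, 3 were named over the 13 embryonic groups and 0 by Spearman's rho.

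Promoters of 5 of the 6 genes were in the RefSeq table (GRCm38.p6, 250 bases before the start). Those of Lin28b and Igf2bp3 are shown only because both hold CACGTG, the E-box bound by MYC family proteins. The motif, the same on both strands, was chosen after the sequences were seen. It was in 1978 of 32851 promoters (6.02%) and in those of 2 of the 5 members, at -49 in Lin28b (chr10:45470202-45470451, minus strand) and at -23 in Igf2bp3 (chr6:49214955-49215204, minus strand). TTTATNG, a form of the CDX motif searched on both strands, was in 3223 promoters (9.81%) and in none of the 5. A match is a description of the letters, not of binding. Capitals mark CACGTG:
Lin28b promoter: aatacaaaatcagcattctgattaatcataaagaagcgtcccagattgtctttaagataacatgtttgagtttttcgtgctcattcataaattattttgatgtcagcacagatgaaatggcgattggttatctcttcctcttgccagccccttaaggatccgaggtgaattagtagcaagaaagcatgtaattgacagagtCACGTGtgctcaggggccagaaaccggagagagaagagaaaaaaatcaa
Igf2bp3 promoter: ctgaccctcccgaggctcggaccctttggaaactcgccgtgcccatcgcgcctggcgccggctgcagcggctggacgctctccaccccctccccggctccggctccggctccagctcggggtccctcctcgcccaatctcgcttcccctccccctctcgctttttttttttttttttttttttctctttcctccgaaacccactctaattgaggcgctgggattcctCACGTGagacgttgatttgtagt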

How the data were processed

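The authors deposited a table of raw read counts per gene symbol for the RNA libraries, made from 75 bp single-end reads. STAR 2.5.3a, HTSeq and the build mm9 are named per the submitters' processing notes, without their roles, and the strand setting and annotation are not given in the sources used here, so reads of overlapping genes could not be told apart. Chromatin samples (38 of ATAC-seq, 5 of ChIP-seq) were not used here, and 2 columns of the table matched no sample and were not used. Each adult column had 2 blank cells, which were closed up, and this changed 0 values of the 6 genes. Tests on the deposited counts used edgeR 4.0.16 under R 4.3.3 (quasi-likelihood test, TMM scaling, filterByExpr with a minimum count of 10, Benjamini-Hochberg adjustment). All 27 embryonic libraries shared 1 fit (17239 genes), since 2 libraries per group say little on spread, and the 4 adult libraries, made with another kit, were fitted apart (12444 genes). Embryonic libraries were made with a SMARTer kit and adult ones with TruSeq, per the labels' protocols.

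Depth ran from 5970227 to 62463167 counts. A gene at 0 counts was bounded at 3 counts per library, and ratios against 1 to 3 counts have exact counting intervals. These cover counting error only, since PCR copies are not independent molecules. On simulated counts edgeR recovered 173 of 200 changed genes with 15 false calls in the embryonic comparison tested (16293 genes). In the adult one it recovered 199 of 200 with 1 false call (12400 genes). Only well-counted genes were changed there and all genes shared a single dispersion. The simulation therefore does not cover genes as low as Lin28a and Lin28b at E16. Alternatives were RLE scaling, DESeq2 1.42.0, no filter, no fold minimum, fits of the groups compared or of all 31 libraries, fits without the libraries labelled deleted at E13, a replicate block, leaving out each library, adult columns as deposited, and likeness over 13 groups or by Spearman's rho. Added after seeing the data were fits without the E16 forestomach libraries, fits without those of E18 and the E13 and E15 deletions, and a crossed block for adult ileum. Companion genes were named as the up to 3 per list and direction with the largest change at an average log2 CPM of at least 2. The genes most like each member were the 3 with the highest Pearson's r. Markers of other cell types were summed per library. The members and lists were chosen with earlier results of these data known. Some genes of these lists are not reported here.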

Additional observations from a re-analysis of the deposited data

Results flagged for a closer look

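In 8 cases the E12 to E16 change of a gene differed between organs by a test of the difference itself. Between forestomach and hindstomach the difference in log2 fold change was -1.14 for Igf2bp1 (edgeR adjusted p = 0.0403), -1.17 for Igf2bp2 (edgeR adjusted p = 0.00148) and -1.75 for Hmga2 (edgeR adjusted p = 0.000359). That of Igf2bp1 was lost in 11 of 17 alternatives (adjusted p from 0.0182 to 0.189). That of Igf2bp2 was under 2-fold with RLE scaling and with DESeq2. Between forestomach and small intestine it was -1.55 for Igf2bp1, -1.54 for Igf2bp2, -1.76 for Igf2bp3 and -1.67 for Hmga2. Between hindstomach and small intestine it was -1.34 for Igf2bp3. Of all genes, 12.9%, 16.1% and 7.85% were called lower in these differences, in the order given. All libraries of both organs moved the same way in the Hmga2 and Igf2bp1 cases. From E12 to E16, 73.7% of all genes with counts in forestomach, 74.7% in hindstomach and 67.5% in the small intestine did not overlap between stages. In the same E16 forestomach libraries the mesenchyme genes summed to 26710 and 33730 CPM and the epithelial genes to 1570 and 1589, and the part of these in the differences was not tested.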

How the results depend on the processing

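Of 53 calls of a member, all 53 kept their direction in every alternative tried and 40 kept the call. Those that did not were mainly of Lin28a, where 1 of 6 calls was kept, and Lin28b, where 0 of 5 were; for Igf2bp2 6 of 8 were kept and for Igf2bp1 10 of 11. The cause was not tested. The number of members called stayed within 1.5 times its value in 339 of 365 alternatives. Without a fold minimum it was 3 in forestomach and 3 in small intestine from E12 to E14, where 1 was called, 2 in hindstomach, 4 in small intestine from E14 to E16 in place of 2, 3 in the E10 deletion, 3 between forestomach and hindstomach and 2 between hindstomach and small intestine at E16, each in place of 1, and 1, 1, 2 and 1 for organs at E12 and E14 with 0. With the groups compared alone in the fit it was 2 in forestomach and hindstomach and 0 in small intestine from E12 to E14, 2 in small intestine from E12 to E16 in place of 4, and 1 between forestomach and hindstomach at E12. DESeq2 also gave 1 there. In adult ileum it was 1 with all 31 libraries in the fit and 1 with no filter. Leaving out 1 library gave 0 to 1 from E12 to E14 in each organ (0 without E14 forestomach replicate 1, E14 hindstomach replicate 2 or E14 small intestine replicate 1). It gave 0 to 1 between forestomach and small intestine at E14 (1, Hmga2, without E14 forestomach replicate 1). It gave 1 to 2 between forestomach and hindstomach at E16 (2 without E16 forestomach replicate 2 or E16 hindstomach replicate 1) and 1 to 2 between hindstomach and small intestine at E16 (2 without E16 hindstomach replicate 1).

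Directions turned for values that were not called. Leaving out 1 library gave -0.35 to 0.45 for Igf2bp3 in adult ileum (-0.35 without knockout replicate 2 and -0.19 without WT replicate 2), and -4.42 to 2.77 and -4.38 to 2.36 for Lin28a in the E10 and E13 deletions (positive without E16 WT replicate 1). It gave -2.16 to 1.60 for Lin28b in the E10 deletion (-2.16 without its replicate 1 and -0.41 without E16 WT replicate 2). RLE scaling and DESeq2 put Igf2bp2 between forestomach and small intestine at E16 at -0.97, under 2-fold. In 8 comparisons RLE shifted the all-gene median by over 0.1, to at most 0.26. Companion counts stayed within 1.5 times in 777 of 848 alternatives. Samples share replicate numbers only: deviations of same-numbered libraries correlated at -0.038 to 0.097 over 78 pairs of groups, none over 0.1. With the replicate block 4 members in place of 5 were called in forestomach from E14 to E16 and 3 in place of 4 in small intestine from E12 to E16. In adult ileum the correlation was -0.152, and 0 were called with the pairing as numbered and with it crossed. Of the genes most like a member, 3 of 18 were the same over 13 groups and 0 with Spearman's rho. The Lin28 genes had at most 37 counts in any WT library at E16 or later, where the limit of detection was 3.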
